A study of Mus musculus with 14 samples.

Results

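Tetraspanins are small membrane proteins that cross the bilayer repeatedly and gather integrins, immunoglobulin-family proteins, proteases and one another into membrane microdomains. Through these partners they act in cell adhesion, migration, receptor shedding and the sorting of cargo into vesicles, and keratinocytes make several of them in quantity. The family was taken here as every protein-coding gene whose mouse symbol is Tspan followed by a number, together with Cd9, Cd37, Cd53, Cd63, Cd81, Cd82 and Cd151. This gave 26 members among the 26252 genes of the count table, and of the symbols named by the rule in the annotation, Tspan32 was not analysed here. The members were chosen by symbol, and the family was selected on the fold changes between these same fractions in an earlier analysis. Its values are therefore a description. The p-values below are those of a fit over all genes, with no test of the family.

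The study compared a pair of cell populations from the dorsal skin epithelium of untreated mouse embryos (strain C57BL/6JOlaHsd, wild type) at E14.5, when hair placodes, the local thickenings that become hair follicles, have formed. Cells positive for the adhesion molecule MAdCAM-1 made up the placode-enriched fraction and negative cells the interfollicular epithelium (IFE). Samples were pools of 3 to 4 embryos of a litter, and by their title codes the 14 libraries form 7 pairs with 1 library of each fraction, numbered 1 to 7. The design asks which genes tell the early hair follicle from the epidermis around it.

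Library totals lay between 23.8 M and 49.5 M counts. The labelled populations carried their markers. The sum of 8 placode markers lay between 804 and 1262 CPM (a gene's counts scaled to the library's total) in the placode-enriched fraction. In the IFE it lay between 129 and 193 CPM. The epithelial keratin gene Krt5 averaged 1938 and 2813 CPM, and Krt14 1468 and 1285 CPM. Of 6 epithelial genes 3 were higher and 3 lower. The sum of 8 markers of suprabasal epidermis, the layer above the basal cells, ran opposite to the placode sum, from 207 to 463 CPM against 2786 to 4375 CPM. The same held for the sum of 9 melanoblast (pigment cell precursor) markers, from 8.31 to 14.6 CPM against 124 to 222 CPM. In bulk libraries such as these, fewer cells of a type and less RNA per cell cannot be told apart.

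Of the 26 tetraspanins, 19 passed the filter on low counts and 7 did not. At an adjusted p under 0.05, 7 of the 19 had more counts in the placode-enriched fraction, 6 had fewer, and 6 did not pass (quasi-likelihood F test of edgeR, blocked on the pair). Of all 15382 genes tested, 31.1% passed, 15.5% of them upward and 15.6% downward as shares of all tested genes. Among genes with a mean of at least 1 CPM, where 13 of 19 members passed, the background was 34.1%, and among those of at least 10 CPM, where 10 of 14 members passed, it was 35.2%. The higher members were Tspan18, Tspan15, Tspan2, Tspan5, Tspan6, Tspan13 and Tspan31, and the lower ones were Tspan7, Tspan4, Cd63, Cd9, Tspan9 and Tspan14. Of these, 4 were at least 2-fold higher and 0 were at least 2-fold lower, where the background is 5.71% and 4.9%. The median log2 fold change of the 19 was 0.24, and that of all genes tested was -0.02. Each of the 19 had counts in every library, the lowest value being 0.451 CPM for Tspan17, so none entered through 1 fraction alone.

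**Figure D1:**
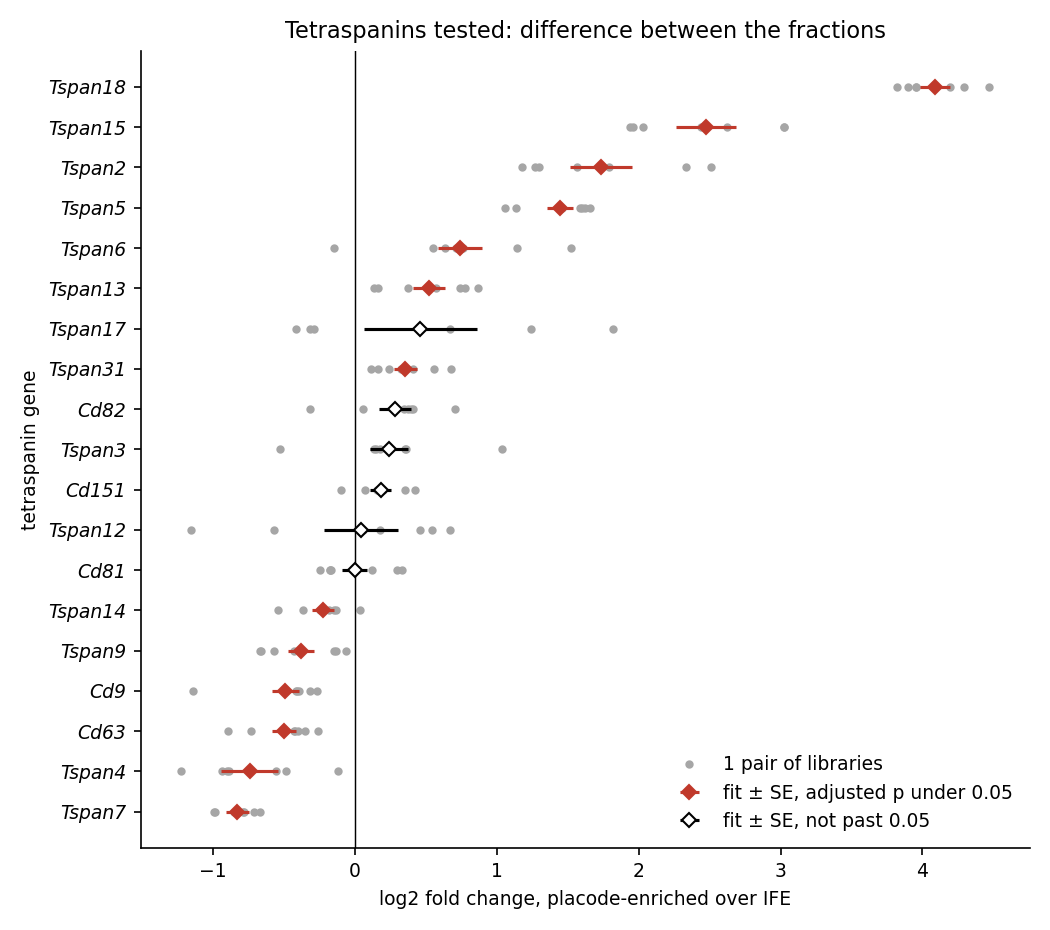
Log2 fold change of placode-enriched over IFE (horizontal axis) for the 19 tetraspanins tested (vertical axis). Diamonds with bars are fitted values ± approximate SE, filled where the adjusted p was under 0.05, and grey points are the 7 pairs of libraries. Tspan18 stands apart at 4.09, and the lowest member is Tspan7 at -0.83.

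The sequence upstream of the start was looked up for the members in the RefSeq promoter windows (GRCm38.p6), and 25 of the 26 matched by symbol, Tspan18 not among them. The 250 bases before the start are shown for Tspan5 and Tspan15, a pair of members at least 2-fold higher, and for Cd9, the most abundant member and a lower one. Capitals mark the GC box GGGCGG on either strand, the letters bound by Sp and Klf factors. The windows are chr3:138741958-138742207 (plus strand) for Tspan5, chr10:62231219-62231468 (minus strand) for Tspan15 and chr6:125494761-125495010 (minus strand) for Cd9.
Tspan5: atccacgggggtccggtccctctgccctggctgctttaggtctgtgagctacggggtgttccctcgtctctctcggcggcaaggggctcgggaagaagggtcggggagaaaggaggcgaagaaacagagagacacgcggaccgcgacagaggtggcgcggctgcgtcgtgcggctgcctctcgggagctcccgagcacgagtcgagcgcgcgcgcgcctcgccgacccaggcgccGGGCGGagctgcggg
Tspan15: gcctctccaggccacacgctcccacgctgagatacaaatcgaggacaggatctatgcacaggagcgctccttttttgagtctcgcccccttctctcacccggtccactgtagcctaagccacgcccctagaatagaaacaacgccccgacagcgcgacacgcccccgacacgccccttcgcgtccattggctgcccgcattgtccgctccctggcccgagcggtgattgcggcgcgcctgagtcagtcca
Cd9: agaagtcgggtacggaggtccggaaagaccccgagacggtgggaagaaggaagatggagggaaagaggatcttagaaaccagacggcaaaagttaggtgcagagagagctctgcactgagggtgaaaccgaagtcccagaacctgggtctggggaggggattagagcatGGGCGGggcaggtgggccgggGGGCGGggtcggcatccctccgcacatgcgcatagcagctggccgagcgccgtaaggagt
The Tspan5 window held 1 GC box and that of Cd9 held 2, whereas the Tspan15 window held 0. Of 32851 windows of the same length over all genes, 32.7% held at least 1. All 3 windows were rich in G and C, at 70.8% in Tspan5, 63.2% in Tspan15 and 61.6% in Cd9, with a median of 52.4% over all windows. None of the 3 held the Tcf/Lef core CTTTGA (in 13.8% of all windows), a Gli site written TGGGTGGTC (0.225%) or the TATA box TATAAA (12.4%), each searched on both strands.

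Tspan18 had the largest difference between the fractions among the 19 members tested. It encodes a tetraspanin known from endothelial cells as a partner of the calcium channel Orai1. Its level (ENSMUSG00000027217; GRCm38 chromosome 2, 93201760 to 93334505, minus strand) lay between 34.5 and 56.9 CPM in placode-enriched libraries, with a median of 53.4 CPM, and between 1.5 and 3.95 CPM in IFE libraries, with a median of 3.08 CPM. The fractions did not overlap, and every placode-enriched library was far above every IFE library. Placode-enriched exceeded IFE by a log2 fold change of 4.09 with an approximate SE of 0.11 (edgeR adjusted p = 4.12e-11), with 7 of 7 pairs higher and pair differences from 3.82 to 4.47. Of the 15382 genes tested, 65 had a larger log2 fold change. The sum of 7 endothelial markers averaged 2.87 CPM against 1.05 CPM in the IFE, and it was higher in 7 of 7 pairs (exact sign-flip test, adjusted p = 0.0234). Of the 7 markers, 1 passed the filter on low counts, Pecam1. It made up most of the sum, at 1.83 and 0.493 CPM, and the defining marker Cdh5 averaged 0.0169 and 0 CPM. The part of any endothelial cells in the Tspan18 difference was not tested. The next member on the chromosome is Cd82, 84.6 kb away on the same strand, known as a suppressor of metastasis. Mean Cd82 was 26.3 ± 3.27 CPM against 21.7 ± 3.01 CPM (SD over 7 libraries each), and its log2 fold change of 0.28 ± 0.11 did not pass (edgeR adjusted p = 0.0776). Cd82 was higher in 6 of 7 pairs, and it passed without replicate 3, at 0.38 (edgeR adjusted p = 0.00729), and with scaling by library size alone, at 0.32 (edgeR adjusted p = 0.0397).

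Tspan2, best known from myelinating glia, is a close relative of Cd9 and Cd81. It lay between 3.80 and 9.03 CPM (median 5.85) in placode-enriched and between 1.02 and 2.65 CPM (median 1.86) in IFE libraries (ENSMUSG00000027858; chromosome 3, 102734529 to 102801513, plus strand). The ranges did not touch, though the placode-enriched libraries were widely spread. The log2 fold change was 1.73 ± 0.22 (edgeR adjusted p = 4.04e-05), higher in 7 of 7 pairs. Both relatives differed from it. Cd9, the partner of heparin-binding EGF-like growth factor and of integrins at the keratinocyte surface, ran from 228 to 355 CPM (median 314) in placode-enriched and from 347 to 504 CPM (median 418) in IFE libraries (ENSMUSG00000030342; chromosome 6, 125460266 to 125494791, minus strand). The upper end of the placode-enriched range reached the lowest IFE library, but the placode-enriched library was the lower one in all 7 pairs. Its log2 fold change was -0.49 ± 0.10 (edgeR adjusted p = 0.00165), with pair 3 the lowest at -1.14 and the other pairs between -0.49 and -0.26.

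Cd81, a co-receptor of B cells that binds the same immunoglobulin-family partners as Cd9, averaged 110 ± 12.6 CPM in the placode-enriched fraction against 109.9 ± 10.7 CPM in the IFE (SD over 7 libraries each). Its fitted log2 fold change was under 0.01 in size with an SE of 0.09 (edgeR adjusted p = 0.996), and 3 of 7 pairs were higher. The 7 pair differences ran from -0.24 to 0.34, on both sides of 0.

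**Figure D2:**
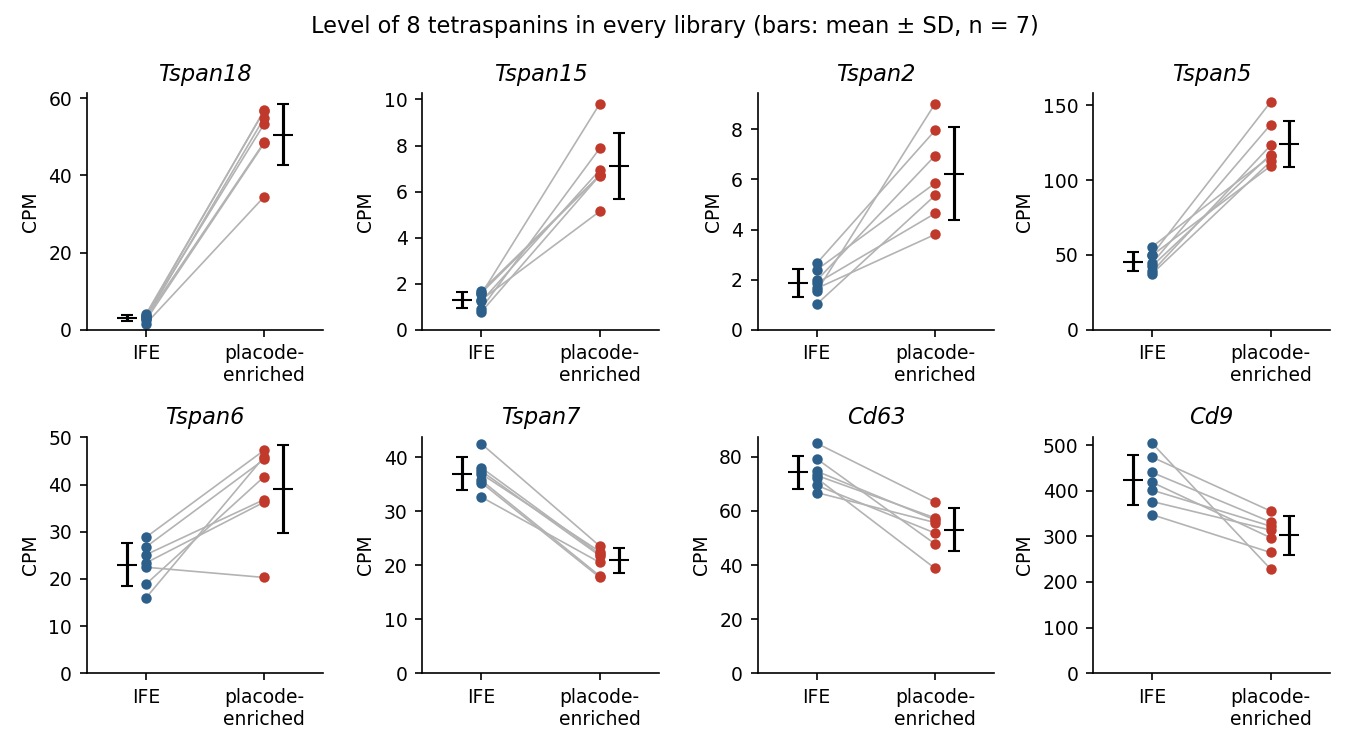
CPM (vertical axes, from 0) of 8 tetraspanins in each IFE (blue) and placode-enriched (red) library. Lines join the libraries of a pair, and bars give mean ± SD of 7 libraries. The fractions do not overlap for Tspan18, Tspan15, Tspan2, Tspan5, Tspan7 and Cd63, and they do for Tspan6 and Cd9.

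The TspanC8 group, Tspan5, Tspan10, Tspan14, Tspan15, Tspan17 and Tspan33, binds the shedding protease ADAM10, carries it out of the endoplasmic reticulum and influences which substrates it cuts. In this group Tspan5 and Tspan15 were higher, Tspan14 was slightly lower, Tspan17 did not pass, and Tspan10 and Tspan33 were not tested. Tspan5 (ENSMUSG00000028152; chromosome 3, 138742195 to 138907905, plus strand) ran from 109 to 152 CPM, median 117 CPM, in the placode-enriched fraction and from 37.4 to 55.5 CPM, median 44.5 CPM, in the IFE. No IFE library came near the lowest placode-enriched one. The log2 fold change was 1.45 ± 0.09 (edgeR adjusted p = 4.98e-08). Tspan15 (ENSMUSG00000037031; chromosome 10, 62185396 to 62231251, minus strand) was at a lower level and differed more. It lay between 5.14 and 9.81 CPM, median 6.70 CPM, in the placode-enriched fraction and between 0.769 and 1.68 CPM, median 1.30 CPM, in IFE libraries, again without overlap. Its log2 fold change was 2.48 ± 0.21 (edgeR adjusted p = 1.10e-06). The 7 Tspan15 pair differences ran from 1.94 to 3.03 and those of Tspan5 from 1.06 to 1.66, all upward.

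Tspan14 ranged from 36.8 to 52.5 CPM (median 46.2) in placode-enriched and from 49.2 to 59.4 CPM (median 51.3) in IFE libraries. The ranges overlapped, and 6 of 7 pairs were lower. At a log2 fold change of -0.22 ± 0.08 it passed narrowly (edgeR adjusted p = 0.0492), and the call was lost without replicate 2, 4, 6 or 7 (edgeR adjusted p = 0.186, 0.159, 0.109 and 0.112). Scaling by upper quartile, by DESeq2 size factors or by library size alone also ended it (0.0666, 0.055 and 0.129), as did either other filter on low counts (0.106 with none, 0.0539 with the stricter one). Tspan17 was scarce, at 1.25 ± 0.249 against 0.971 ± 0.455 CPM (log2 0.46 ± 0.40; edgeR adjusted p = 0.436).

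CPM divided by exonic length in kilobases (RPKM) allow levels to be set between genes. On that scale, Tspan14 made up 72.5 ± 2.99% of the summed TspanC8 level in IFE and 48.1 ± 4.57% in placode-enriched libraries (mean ± SD, n = 7 each). Tspan5 made up 22.5 ± 2.74% and 47.3 ± 4.45%, and the placode-enriched share was the larger in 7 of 7 pairs. Neither share overlapped between the fractions: the highest Tspan5 share of an IFE library was 26.3% and the lowest of a placode-enriched library 41.1%. Tspan15 made up 0.579% of the group in IFE and 2.45% in placode-enriched libraries. The summed level itself was 35.5 ± 2.36 RPKM in placode-enriched and 27.4 ± 1.78 RPKM in IFE libraries, higher in 7 of 7 pairs. These shares rest on the same counts as the fold changes above and were not tested. The length is that of all annotated exons, 2650 bases for Tspan14 and 7389 for Tspan5, and the shares depend on it. Before division by length, Tspan5 averaged 124 CPM and Tspan14 45.2 CPM in placode-enriched libraries, against 45.6 and 52.6 CPM in the IFE.

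**Figure D3:**
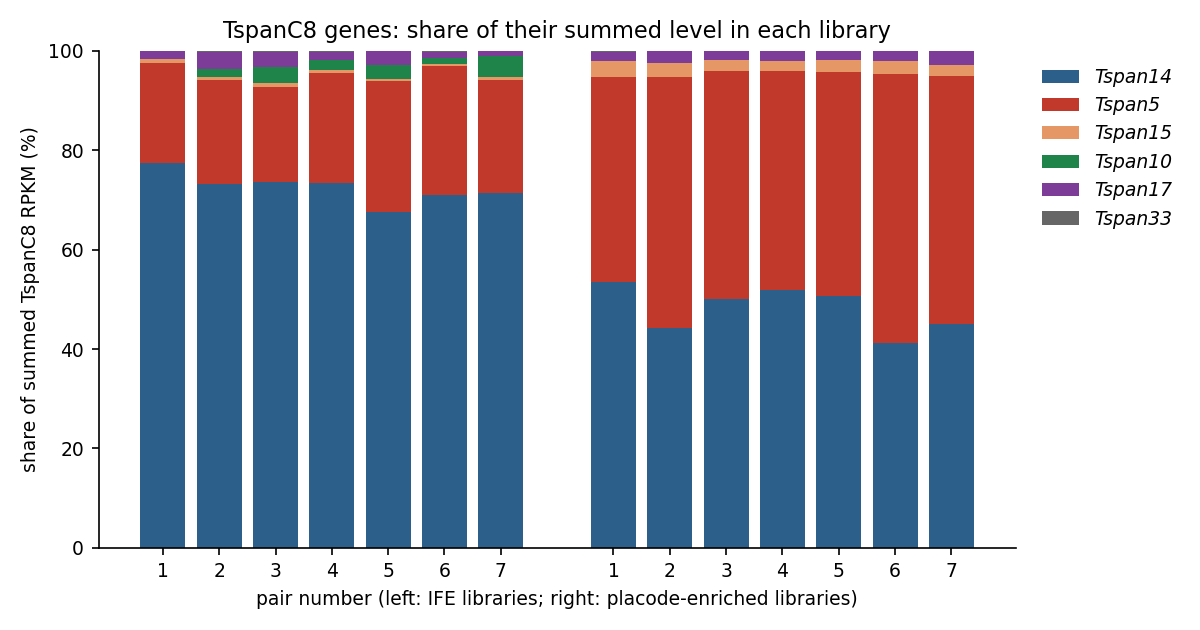
Share of the summed RPKM of the 6 TspanC8 genes (vertical axis, percent) in each library, by pair number, with IFE libraries at the left and placode-enriched libraries at the right. Tspan14 (blue) holds 67.6 to 77.3% in IFE and 41.2 to 53.6% in placode-enriched libraries, and Tspan5 (red) holds most of the rest.

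Adam10 itself ranged from 97.6 to 139 CPM against 122 to 146 CPM, and its log2 fold change of -0.22 ± 0.08 passed narrowly (edgeR adjusted p = 0.0478). Of a list of 15 genes, Adam10, its relative Adam17 and proteins that they shed, all were tested, with 3 higher, 10 lower and 2 short of the threshold, with a median log2 fold change of -0.46. Cdh2 (-4.53 ± 0.92), the adhesion receptor gene Cd44 (-2.54 ± 0.09), the receptor gene Notch3 (-2.32 ± 0.11) and the EGF-family ligand gene Btc (-2.14 ± 0.38) fell most. The Cdh2 value rests on means of 0.115 and 1.84 CPM, with 3 placode-enriched libraries at 0. The background of 31.1% is for all tested genes, and the list was compiled with earlier results of these data known.

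Further higher members differed by less than 2-fold. Tspan6, an X-linked gene known for its part in vesicle release and in antiviral signalling, ranged from 20.3 to 47.3 CPM (median 41.7) in placode-enriched and from 15.9 to 28.8 CPM (median 23.4) in IFE libraries. Its log2 fold change was 0.74 ± 0.15 (edgeR adjusted p = 0.00226). The overlap came from pair 5, whose placode-enriched library was the lowest of its fraction and fell below its IFE partner, while the other 6 pairs were higher. Tspan13 ranged from 14.4 to 30.5 CPM against 12.5 to 16.7 CPM, with a log2 value of 0.52 ± 0.11 (edgeR adjusted p = 0.00312), higher in 7 of 7 pairs. Tspan31 ranged from 79.6 to 100.1 CPM against 62.5 to 83.6 CPM, with a log2 value of 0.36 ± 0.08 (edgeR adjusted p = 0.00406), also in 7 of 7 pairs. Tspan31 shares 641 bases, 29.2% of its exonic length, with the cell cycle kinase gene Cdk4 on the opposite strand. Cdk4 averaged 444 and 371 CPM, a log2 difference of 0.25 ± 0.07 (edgeR adjusted p = 0.012), and since the strand setting of the counting is not given, reads of the shared stretch cannot be assigned to either gene.

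The lower members differed by less than 2-fold as well. Tspan7 (ENSMUSG00000058254; chromosome X, 10485158 to 10596605, plus strand), known from neurons as a regulator of glutamate receptor trafficking, lay between 17.7 and 23.5 CPM (median 21.8) in placode-enriched and between 32.6 and 42.5 CPM (median 36.9) in IFE libraries. The ranges did not overlap. The log2 fold change of -0.83 ± 0.08 had, at an edgeR adjusted p of 3.23e-06, the smallest spread over pairs of all tested members, from -0.99 to -0.67. Cd63, a protein of late endosomes and lysosomes that sorts the melanosome protein Pmel in pigment cells, lay between 38.7 and 63.2 CPM (median 55.7) and between 66.8 and 85.0 CPM (median 73.1), again without overlap (ENSMUSG00000025351; chromosome 10, 128900989 to 128912822, plus strand). Its log2 fold change was -0.50 ± 0.09 (edgeR adjusted p = 0.000569). Tspan4, which takes part in migrasome formation, ran from 1.65 to 3.07 CPM and from 3.09 to 4.75 CPM, with a log2 value of -0.74 ± 0.20 (edgeR adjusted p = 0.0134). The highest placode-enriched Tspan4 value fell just short of the lowest IFE value, and 292 of its exonic bases (13.4%) overlap Chid1 on the opposite strand. Tspan9, a platelet tetraspanin, ran from 51.5 to 77.3 CPM and from 68.4 to 94.8 CPM, with a log2 value of -0.38 ± 0.09 (edgeR adjusted p = 0.00646), lower in 7 of 7 pairs.

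The suprabasal sum fell by 3.68 on the log2 scale beside these genes, and the melanoblast sum fell by 3.86 (mean over pairs). Each was lower in 7 of 7 pairs, with a p of 0.0234 adjusted over 12 marker lists (exact two-sided sign-flip permutation test, the unadjusted p being the smallest that 7 pairs allow). All 8 tested genes of each of these lists fell. The periderm sum (-1.76), the Schwann and neuron sum (-0.73) and the epithelial sum (-0.21) were also lower in 7 of 7 pairs. The dermal fibroblast sum (0.91) was higher in 7 of 7, and each of these had the same adjusted p. Single genes of these lists did not all follow the sum. Of 6 tested periderm genes 2 were higher and 4 lower, and of 6 epithelial genes 3 were higher and 3 lower. Of 6 tested fibroblast genes 2 were higher, 1 was lower and 3 did not pass. In the placode-enriched fraction Dcn alone averaged 498 of the 532 CPM of that sum. Of 5 tested Schwann and neuron genes 3 were lower and 2 did not pass, with Erbb3 at 87.7 of 92.6 CPM there. The leukocyte (adjusted p = 0.113), erythroid (0.0833), Merkel cell (0.324) and muscle (0.562) sums did not pass the same exact test. The part of these cells in the difference of Cd9, Cd63, Tspan4, Tspan7 and Tspan9 was not tested.

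Across both fractions, 7 tested members did not overlap in CPM, 4 higher and 3 lower, where the background is 14.8% of genes. The direction was shared by all 7 pairs for 11 of the 13 members that passed, Tspan6 and Tspan14 being the exceptions. The same share over all genes that passed was not counted, so this is no result about the members.

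Per exon length, Cd9 was the leading tetraspanin of both fractions, at 148 ± 21.1 RPKM in the placode-enriched fraction and 207 ± 26.6 RPKM in the IFE (SD over 7 libraries each). No library of either fraction had another member near it. Cd9 alone held 48.8 ± 3.63% of the summed tetraspanin level in IFE and 37.3 ± 3.92% in placode-enriched libraries, with the lower share in the placode-enriched library of all 7 pairs. Cd81, Tspan31, Cd151 and Tspan3 came next, with means of 38.2, 33.2, 26.9 and 20.8 RPKM in IFE libraries. Neighbours in that order overlapped in range over the 7 libraries, and their order within single libraries was not compared. Cd81 lay wholly above Cd151 and Tspan3, and Tspan31 wholly above Tspan3. In placode-enriched libraries the same genes stood at 38.2, 42.5, 30.7 and 24.6 RPKM. The summed level of all 26 members was 395 ± 22 RPKM against 423 ± 23.6 RPKM, lower in the placode-enriched library of 7 of 7 pairs. Mean Cd9, at 148 against 207 RPKM, differed by more than the sum did. The other members together therefore had the higher mean in the placode-enriched fraction. The median log2 fold change of the 19 tested members was 0.24.

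Among tested members the order changed most for Tspan18, which was 19th of 26 by mean RPKM in IFE libraries (0.368 RPKM) and 13th in placode-enriched libraries (6.18 RPKM). Tspan5 moved from 11th (6.17 RPKM) to 8th (16.8 RPKM) and Cd63 from 6th (20.2 RPKM) to 9th (14.4 RPKM). Moves of the same size were those of Tspan6, from 9th (11.2 RPKM) to 6th (19.0 RPKM), and Tspan2, from 18th (0.392 RPKM) to 15th (1.31 RPKM).

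**Figure D4:**
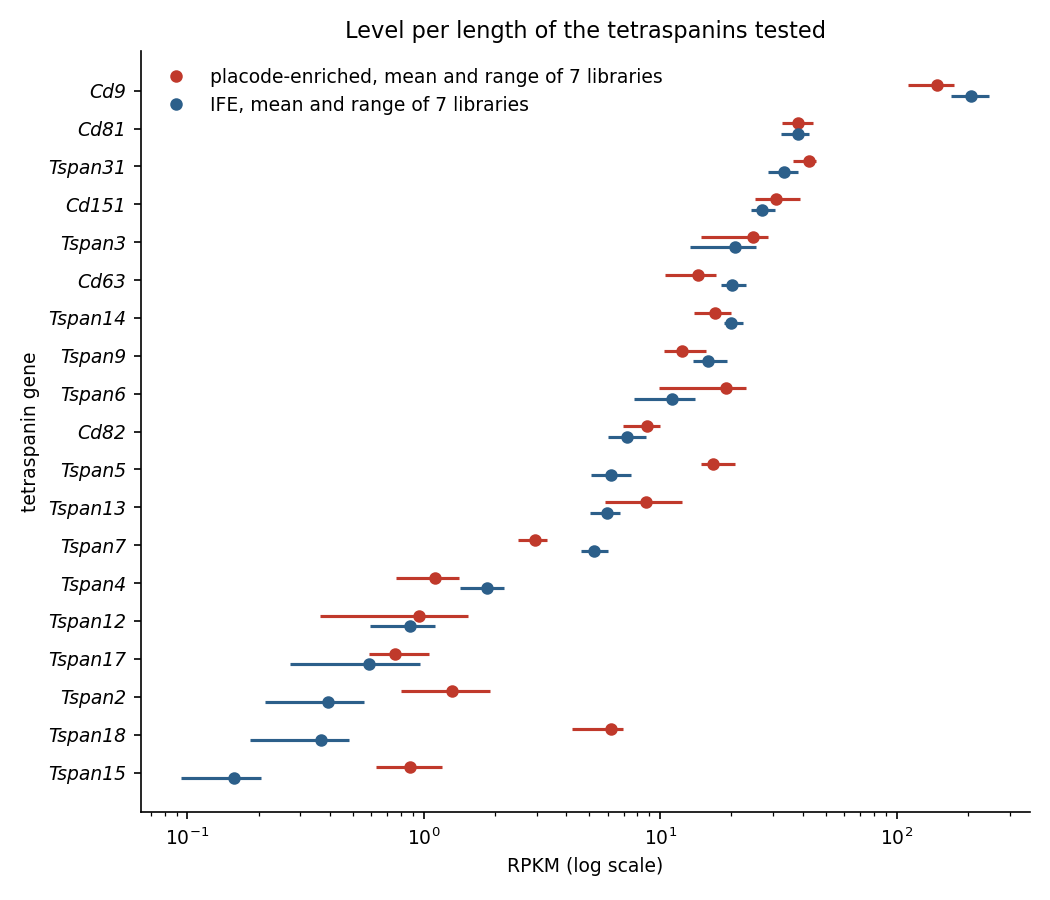
RPKM on a log scale (horizontal axis) of the 19 tetraspanins tested (vertical axis), ordered by their mean in IFE libraries. Points are means and lines the range of 7 libraries, in placode-enriched (red) and IFE (blue) libraries. Cd9 leads in both fractions, and the lines of Tspan18, Tspan15, Tspan2, Tspan5, Tspan4, Tspan7 and Cd63 do not overlap between the fractions.

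Cd151 and Tspan3, among the most abundant members, did not pass. Cd151, the main partner of laminin-binding integrins at the basal surface of keratinocytes, ran from 68.8 to 107 CPM (median 82.8) in placode-enriched and from 66.3 to 83.7 CPM (median 73.5) in IFE libraries. The ranges lay largely on top of each other. Its log2 fold change was 0.18 ± 0.07 (edgeR adjusted p = 0.0797), with 6 of 7 pairs higher, and it passed without replicate 5, at 0.23 (edgeR adjusted p = 0.0296). Tspan3 ran from 63.6 to 122 CPM (median 113) and from 57.0 to 109 CPM (median 91.5). Its log2 fold change was 0.24 ± 0.13 (edgeR adjusted p = 0.206), with pair 3 at 1.04 and pair 5 at -0.52. Without replicate 5 Tspan3 passed too, at 0.36 (edgeR adjusted p = 0.016). Tspan12, a component of the Norrin and Fzd4 receptor complex, was scarce, at 3.16 ± 1.43 against 2.88 ± 0.686 CPM (log2 0.04 ± 0.26; edgeR adjusted p = 0.924).

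In the basement membrane zone, genes of the laminin-binding integrins, partners of Cd151, and of laminin chains went both ways. The laminin chain gene Lamb3 (0.68 ± 0.08) and the integrin gene Itga3 (0.37 ± 0.10) rose, and the hemidesmosomal integrin gene Itgb4 fell (-0.28 ± 0.09). The integrin genes Itga6 (0.007 ± 0.10) and Itgb1 (0.11 ± 0.08) and the laminin chain gene Lama3 (0.08 ± 0.07) did not pass. Among 16 other direct partners of tetraspanins, 14 were tested, with 5 higher, 6 lower and 3 not passing. Over all tested genes 15.5% were higher and 15.6% lower. Ifitm1, an interferon-induced membrane protein, rose (2.92 ± 0.10), whereas Cd36 (-5.40 ± 1.15), the receptor gene Kit (-3.92 ± 0.22) and the tight junction gene Cldn1 (-1.70 ± 0.12) fell. Kit is also one of the melanoblast markers. The Cd36 value rests on means of 0.0536 and 1.02 CPM, with counts in 1 of 7 placode-enriched libraries.

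Of the Norrin receptor genes, 1 of 3 tested was higher, Lrp6 at 0.22 ± 0.07, and 2 did not pass. Of 10 genes of vesicle biogenesis, 1 was higher, 3 were lower and 6 did not pass. Both shares are near the 31.1% of all tested genes and are no result about these lists. The secretion GTPase genes Rab27b (-2.28 ± 0.19) and Rab27a (-0.40 ± 0.10) fell, as did Pdcd6ip (-0.35 ± 0.06), and Flot2 rose (0.27 ± 0.09). Of the tetraspanins without a Tspan or Cd symbol, the uroplakins Upk1b (-1.42 ± 0.31; edgeR adjusted p = 0.00352) and Upk1a (-1.11 ± 0.35; edgeR adjusted p = 0.0274) were lower, and Rom1 did not pass.

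The 7 members under the filter on low counts did not exceed 2 CPM in any library. Tspan10, a TspanC8 gene of pigmented cells, had 2 counts over all placode-enriched libraries, both in pair 5, and 262 counts over the IFE libraries, where only that of pair 1 held 0. Scaled to library totals, the IFE level was 128-fold higher, with a 95% interval (exact Clopper-Pearson, counting error only) from 35 to 1060. Amplified reads are not independent molecules, so the interval is too narrow. With no filter on low counts Tspan10 passed, with -6.70 ± 1.0 on the log2 scale (edgeR adjusted p = 1.06e-05), a value depending on the prior count. The melanoblast sum given above was lower in the same libraries, and its part in the Tspan10 difference was not tested.

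The leukocyte tetraspanin genes Cd37 and Cd53 reached at most 0.439 and 0.357 CPM in any library. Cd53 and Tspan1 were at 0 in all 7 placode-enriched libraries. For counting error only, these together allow a level of up to 0.0131 CPM (3 counts over the 7 libraries). As for Tspan10, amplified reads are not independent molecules, so this limit is too low. All 13 counts of Cd53 came from the IFE library of pair 5. Ptprc, the common leukocyte marker, averaged 0.0506 and 0.116 CPM. Tspan33 did not exceed 0.442 CPM, Tspan11 0.266 CPM, Tspan1 0.229 CPM and Tspan8 0.19 CPM. At these levels no difference was detectable for these 6 genes.

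The title codes put 3 pairs, numbers 5 to 7, under 27-7 and the other 4 under other codes, and the labels do not say what the codes stand for. Tspan18 had a log2 fold change of 4.01 in the first set and 4.16 in the second, Tspan15 of 2.75 and 2.28, Tspan2 of 1.68 and 1.77, Tspan5 of 1.43 and 1.46, and Tspan7 of -0.83 and -0.82. These 5 genes and Cd9 and Cd63 passed in both sets. Tspan6 (0.52 and 0.91), Tspan13 (0.37 and 0.64), Tspan9 (-0.29 and -0.45) and Tspan4 (-0.52 and -0.90) kept their direction and passed in the second set only. Tspan31 (0.42 and 0.31) and Tspan14 (-0.18 and -0.26) passed in neither. Tspan10 passed the filter on low counts in the 27-7 set and was lower there, at -5.87 (edgeR adjusted p = 0.0112). Tspan3 stood at 0.00 and 0.43 and Tspan12 at -0.38 and 0.35 without passing in either set. Whether the sets differ was not tested.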

How the data were processed

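RNA from 14 libraries was analysed. The values deposited by the authors are raw counts by Ensembl identifier. The submitters' processing notes name HTSeq, STAR (version given as 1.5), Trimmomatic, MultiQC, FastQC and bcl2fastq 2.17.1.14, and the builds mm10 and GRCm38. Annotation release, strand setting and duplicate treatment were not given in the sources used here. Of 26252 identifiers, 25949 matched GENCODE M21 (GRCm38), which gave symbols, coordinates and exonic lengths; the 303 others held 0.44% of counts.

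Counts were filtered with filterByExpr (15382 genes left), scaled by TMM and tested with edgeR 4.0.16 (R 4.3.3, limma 3.58.1; Python 3.11.15, pandas 2.3.3, numpy 2.4.6, matplotlib 3.10.9), robust quasi-likelihood, Benjamini-Hochberg over all genes. The method was also run on simulated counts, drawn from the means and spreads of these data without a pair effect. Such counts follow the model's own assumptions and cannot test the pairing. The pair was a block because the series' design speaks of sample pairs and both libraries of a pair share a title code; deviations correlated by 0.055 on average within pairs (-0.132 to 0.195). The spread behind each p-value is that among these pools. CPM use TMM-scaled totals; RPKM divide them by exonic length. Fitted fold changes use a prior count of 0.125 and pair differences one of 2. SE are approximate, the coefficient over the square root of F. Marker sums were compared after adding 0.1 CPM, by exact sign-flip permutation tests over 7 pairs.

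Every tetraspanin past the filter is named; the others are given by their highest CPM. Up to 4 passing partners are named per list, by size of change; 1 result of the basement membrane list is not reported here. The members and lists were chosen with earlier results of these data known. Alternatives were no replicate block, other scalings, other filters, DESeq2 1.42.0, limma-voom, a non-robust fit, each pair left out, each set of title codes alone and a threshold of 0.01.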

Additional observations from a re-analysis of the deposited data

Results flagged for a closer look

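In 2 of 38 groups of 7 libraries (19 tetraspanins in each fraction), 1 library lay apart from the rest by more than Dixon's 95% limit, where chance flags about 1 group in 20. Tspan18 stood at 34.5 CPM in the placode-enriched library of pair 1, below the other 6 of that fraction. Its IFE partner was also the lowest of its fraction, at 1.5 CPM, and the pair difference of 4.47 was the highest of the 7. Tspan6 stood at 20.3 CPM in the placode-enriched library of pair 5, and without replicate 5 its log2 fold change was 0.88 (edgeR adjusted p = 6.9e-05).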

How the results depend on the processing

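Of the 13 tetraspanins that passed, the same 13 passed with no replicate block, with DESeq2, with limma-voom and with the non-robust fit, so the pairing changed none of these calls. At a threshold of 0.01, 11 remained. Between 12 and 15 members passed without replicate 1 to 7. Of the 13, only Tspan14 was lost in any of these fits. Tspan10 was gained without replicate 1, Cd82 without replicate 3, and Cd151 and Tspan3 without replicate 5. With the pairs coded 27-7 alone, a set of 3 pairs, 8 members passed, 4 of them higher. They were 7 of the 13 and Tspan10, which was not tested with all pairs. In that set 20 partner genes passed, against 33 with all pairs. Over all genes 2331 passed there (1226 higher, 1105 lower) and 3087 with the other 4 pairs (1547 higher, 1540 lower), against 4786 with all 7. Fewer pairs were fitted in both, and no other cause was tested. Tspan12, Tspan3 and Cd81, none of which passed, changed sign: Tspan12 at -0.38 and Tspan3 at -0.0032 with the pairs coded 27-7, and Tspan12 between -0.0658 and 0.23 without 1 replicate. Cd81 turned to 0.0015 with no replicate block, 0.0073 with DESeq2 size factors and with DESeq2, 0.0167 with upper-quartile scaling, 0.0324 with library size only, 0.0112 with no filter, 0.0092 with the stricter filter and 0.0188 with the other 4 pairs, and lay between -0.0594 and 0.055 without 1 replicate. The sum of muscle markers lay between -0.5897 and 0.0692 (log2) without 1 replicate. Members under about 1 CPM are limited by depth.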
